A study of Homo sapiens with 8 samples.

Results

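The genes described here are 45 genes of DNA replication and of the E2F programme, chosen by symbol: the MCM helicase and the factors that load and fire it, the sliding clamp and its loader, the replicative polymerases, the enzymes of nucleotide supply and lagging-strand joining, the chromatin factors CHAF1A and CHAF1B, and the transcription factors E2F1, E2F2 and E2F8. Of the 45, 44 matched an Ensembl identifier of the count table and all 44 passed the filter on low counts, among 16657 genes tested in all; the expression of UHRF1 was not analysed here. Members were chosen by name and not by a cut on measured values, but with earlier results of these data known. Total RNA was sequenced from RMG1, a line of human ovarian clear cell carcinoma, in 4 groups of 2 libraries. The groups were ARID1A knockout cells made with CRISPR and with CAPH2 wild type, RMG1 cells wild type for both genes, cells with an shRNA against CAPH2 and ARID1A wild type, and cells with a control shRNA and both genes wild type. The gene NCAPH2 encodes CAPH2, which belongs to condensin II, and ARID1A is a subunit of the SWI/SNF chromatin remodeller. The labels do not say whether the knockout cells are 1 clone or a pool, and they name no separate cultures behind the 2 libraries of each group. The p-values thus weigh the difference between groups against the spread of libraries within groups, and that spread may hold only technical variation. The spread of a gene was estimated over all 4 groups together, although the groups were not equally tight. Chi-square per degree of freedom between the 2 libraries was 19.8 in wild type and 14.9 in knockdown. It was 5.45 in knockout and 4.37 in shRNA control.

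Before S phase, the origin recognition complex with CDC6 and CDT1 loads the MCM2 to MCM7 ring onto DNA, and geminin (GMNN) blocks CDT1 so that loading does not recur. The kinase CDC7 with its activator DBF4 then helps CDC45 and the GINS complex to join the ring, and MCM10 helps to make the helicase active. Most of these genes, and those of the clamp, the polymerases and nucleotide synthesis, are known targets of E2F factors, which are released from the retinoblastoma protein at the transition from G1 to S phase, so their transcripts are commonly read as a sign of proliferation. In RNA from a culture, a smaller share of cells in S phase and less RNA per cell cannot be told apart.

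Total counts per library lay between 24559547 and 37378691. Levels are given as CPM (counts scaled to a common library size) after TMM scaling, in which a single count was worth 0.0261 to 0.0413 CPM. ARID1A transcripts averaged 6.14 ± 0.739 CPM in knockout cells and 10.4 ± 2.33 CPM in wild-type cells (SD, n = 2 each; log2 fold change −0.77, edgeR adjusted p = 0.00274), and NCAPH2 averaged 8.86 ± 0.174 CPM in knockdown cells and 24.9 ± 1.24 CPM in shRNA control cells (−1.49, edgeR adjusted p = 1.84e-06). NCAPH2 was also lower in knockout (22.4 ± 2.05 CPM) than in wild-type cells (28.4 ± 2.27 CPM; −0.34, edgeR adjusted p = 0.0144). ARID1A was not called in the knockdown (−0.11, edgeR adjusted p = 0.717). All 9 matched clear cell and epithelial markers were detected, and they summed to 3660 to 3690 CPM in knockout, 5130 to 5730 in wild-type, 6460 to 6530 in knockdown and 5740 to 5760 in shRNA control libraries. Among markers of other cells, COL1A2, COL3A1, CD3E and KDR had no count in any library. The summed leukocyte markers (6 genes) stood at 4.33 to 5.34 CPM in knockout libraries and 0.869 to 2.6 CPM in wild-type libraries, with PTPRC at 2.12 CPM in knockout and 0.0207 CPM in wild-type cells. The fibroblast markers (6 genes) summed to 0.992 to 1.12 CPM in knockout libraries and 0.435 to 0.455 CPM in wild-type libraries, and the endothelial markers (4 genes) to 0.157 to 0.219 CPM in knockout and 0.761 to 1.03 CPM in wild-type libraries. In knockdown libraries the leukocyte, fibroblast and endothelial sums were 1.83 to 2.58, 0.284 to 0.29 and 0.504 to 0.677 CPM, and in shRNA control libraries 2.63 to 3.6, 0.419 to 0.464 and 0.531 to 0.712 CPM. The part of these marker levels in the values of the replication genes was not tested.

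Promoters of the members were searched for E2F-type letters. Since the list was built around replication and E2F genes, most of them known E2F targets, a high share is no independent finding. Of 40 members with a RefSeq promoter window (GRCh38.p14, 250 bases before to 50 after a start), 22 (55.0%) held TTTCCCGC, TTTGGCGC, TTTCGCGC or TTTGCCGC on either strand, UHRF1 among both the 40 and the 22, against 855 of 15843 protein-coding genes (5.4%) with windows of the same length. Matches on opposite strands can overlap. The CCAAT box, written CCAAT, was in 57.5% of the members' windows and 42.1% of those of protein-coding genes, and the CHR element of mitotic promoters, searched as TTTGAA, in 5.0% and 15.8%. A match is a description of letters and does not show that a factor binds there. The 3 members with E2F-type letters that fell most in the knockout and the 2 that rose are shown from 120 bases before the start to 20 bases after it, 5′ to 3′ on the gene's strand, with the E2F-type letters in capitals; GCGGGAAA and GCGCCAAA are TTTCCCGC and TTTGGCGC read on the opposite strand.
E2F2, chr1:23531214-23531353, minus strand: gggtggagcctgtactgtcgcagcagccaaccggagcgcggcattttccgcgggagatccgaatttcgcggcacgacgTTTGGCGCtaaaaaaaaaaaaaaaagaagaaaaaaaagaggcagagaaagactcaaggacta
TYMS, chr18:657533-657672, plus strand: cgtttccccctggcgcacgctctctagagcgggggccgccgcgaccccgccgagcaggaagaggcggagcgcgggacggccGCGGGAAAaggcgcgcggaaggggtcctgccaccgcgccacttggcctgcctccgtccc
PCNA, chr20:5126603-5126742, minus strand: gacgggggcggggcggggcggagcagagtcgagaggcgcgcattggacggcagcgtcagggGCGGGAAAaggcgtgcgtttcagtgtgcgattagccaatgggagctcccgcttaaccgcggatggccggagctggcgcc
RFC3, chr13:33818029-33818168, plus strand: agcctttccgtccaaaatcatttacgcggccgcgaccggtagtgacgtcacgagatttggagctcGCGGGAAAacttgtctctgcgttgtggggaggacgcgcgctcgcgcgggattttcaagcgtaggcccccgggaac
GINS1, chr20:25407553-25407692, plus strand: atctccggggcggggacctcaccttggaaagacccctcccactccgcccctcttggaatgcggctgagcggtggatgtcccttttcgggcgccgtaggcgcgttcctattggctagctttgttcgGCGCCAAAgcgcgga
The first base of the match lay 42 bases before the start in E2F2, 39 in TYMS, 59 in PCNA and 55 in RFC3, and at base 6 after the start in GINS1. These 5 genes were picked for holding the letters, so the presence of letters at both falls and rises follows from the choice. PCNA had 2 promoter windows, and a match was found only in the window shown.

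Per kilobase of transcript, the members spanned from 1.96 CPM for E2F2 to 246 CPM for PCNA, the sliding clamp, averaged over all 8 libraries. RRM1, the large subunit of ribonucleotide reductase, stood at 144 CPM per kilobase, MCM3 at 118 and RRM2, the small subunit, at 113. At the low end were CDT1 with 2.24 CPM per kilobase, RPA1, a subunit of the single-strand binding protein, with 3.09, E2F8 with 3.34 and E2F1 with 4.03. Within the helicase and its loading factors the highest gene, MCM3, was 52.7 times the lowest, CDT1, whereas polymerase and primase genes differed by at most 3.49 times, between PRIM1 at 19.8 and POLD1 at 5.68 CPM per kilobase. The highest group mean of a member was at the median 1.22 times its lowest, and at most 1.76 times, for TYMS. Wild-type cells had the highest mean of the 4 groups for 20 of the 44 members and the lowest for 2, while knockdown cells had the lowest for 18 and the highest for 5. The same count was not made over all genes tested, so this order is not shown to be particular to the members.

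**Figure D1:**
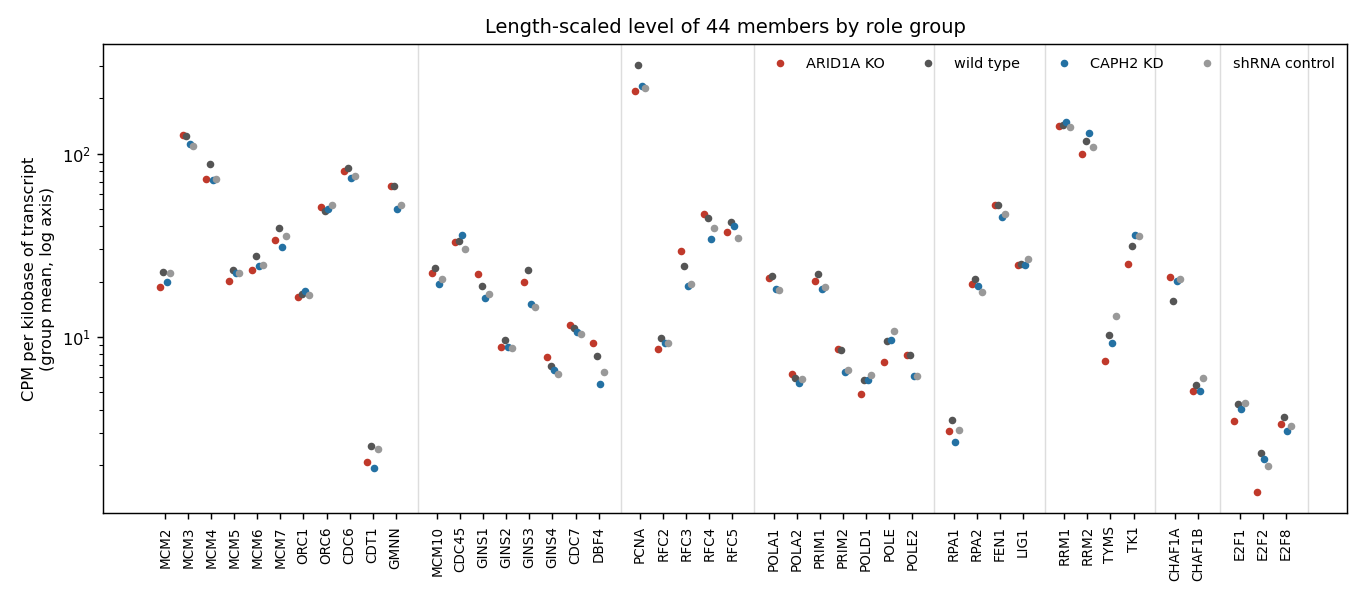
Group means of 44 members in CPM per kilobase of transcript on a log axis, ordered by role, with 1 point for each of the 4 groups. PCNA at 246 and E2F2 at 1.96 mark the ends, and the 4 points of a gene lie close together relative to the spread between genes.

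Knockout cells were set against wild-type cells to see how loss of ARID1A bears on these transcripts. Genes were called with an edgeR quasi-likelihood F-test fitted to all 8 libraries and a Benjamini-Hochberg adjusted p under 0.05 over all 16657 genes. In the knockout, 12 of the 44 members fell and 3 rose, together 34.1% of the members, against 34.5% of all genes tested. By direction, 27.3% of members fell against 17.8% of all genes, and 6.82% rose against 16.8%. The members that fell were MCM2, MCM4, MCM5, MCM6, MCM7, GINS3, PCNA, POLE, RRM2, TYMS, TK1 and E2F2, and those that rose were GINS1, RFC3 and CHAF1A. The changes were small: no member was called with a change of 2-fold or more, as 1667 of all genes were, and the median absolute log2 change was 0.18 for members and 0.22 for the 9903 genes with a mean of at least 5 CPM. The median log2 fold change was −0.10 over the members and 0.00 over all genes, with 32 members below 0 and 12 above. Both knockout libraries lay below both wild-type libraries for 22 members, against 31.9% of all genes, and above both for 7, against 32.7%. Without knockout library 1 the members called lower dropped to 7, and without knockout library 2 they dropped to 7 with 1 higher; the calls over all genes, 5751 in the full fit, were then 4277 and 3928.

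**Figure D2:**
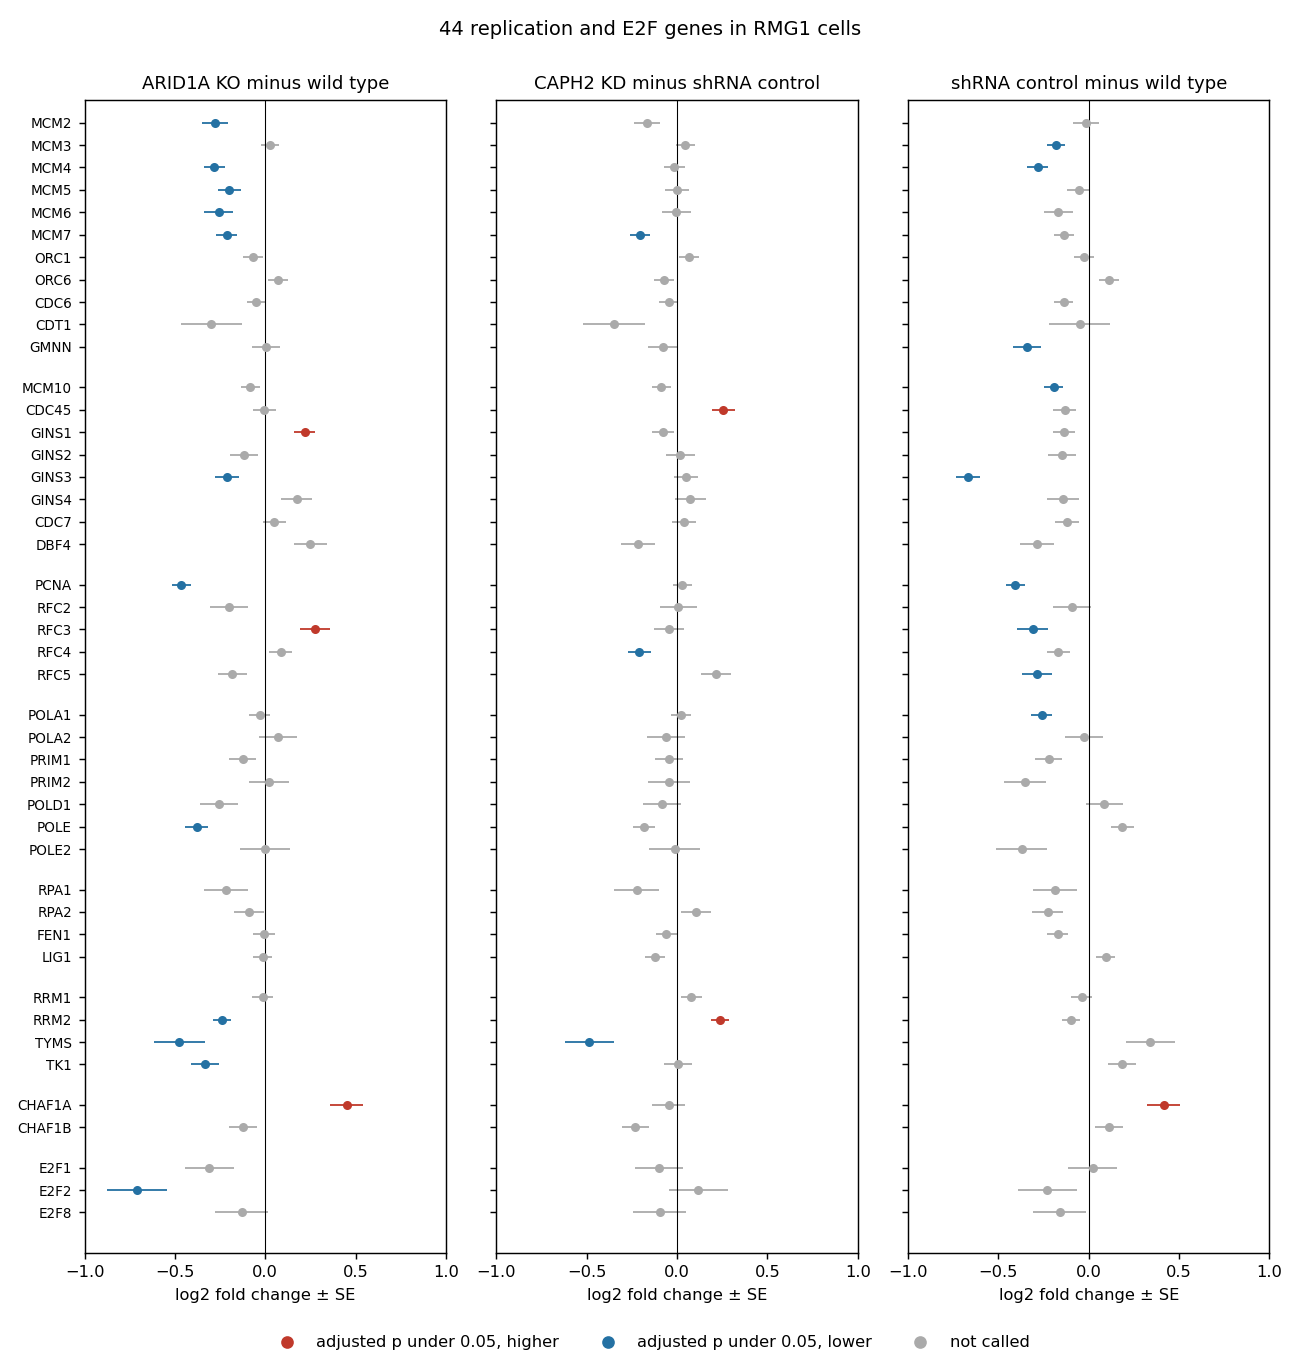
Log2 fold change of each of 44 members with its SE, by role, in 3 panels (knockout over wild type, knockdown over shRNA control, shRNA control over wild type); red and blue points passed the test as higher and lower, grey points did not. Calls of the knockout lie mostly left of 0 (12 lower, 3 higher), and those of the knockdown are few (3 lower, 2 higher).

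Of 11 genes of the helicase ring and its loading, 5 fell in the knockout and none rose, and all 5 encode ring subunits. MCM4 had 306 and 299 CPM in knockout libraries and 383 and 352 CPM in wild-type libraries. The groups did not overlap, and MCM4 fell by 0.28 on the log2 scale (SE 0.06, edgeR adjusted p = 0.00279). MCM2 had 66.4 and 68.1 CPM in knockout libraries and 75.0 and 88.1 CPM in wild-type libraries, again without overlap, and also fell by 0.28 (SE 0.07, edgeR adjusted p = 0.0111). MCM6, at 85.7 and 86.2 CPM in knockout against 92.7 and 113 CPM in wild-type libraries, fell by 0.26 (edgeR adjusted p = 0.0256). MCM7 (−0.21) and MCM5 (−0.20) fell by less. The remaining ring subunit, MCM3, had 403 and 409 CPM in knockout libraries and 413 and 385 CPM in wild-type libraries, which overlap, with a log2 fold change of 0.03 (SE 0.05, edgeR adjusted p = 0.74). Summed over the 6 ring subunits, the level was 1030 and 1036 CPM in knockout libraries and 1163 and 1134 CPM in wild-type libraries. It was 995 and 996 CPM in knockdown libraries and 1011 and 1010 CPM in shRNA control libraries, so the sum was below wild type in all 3 other groups. The call of MCM4 held in every alternative tried. That of MCM2 did not pass without wild-type library 2 (−0.16) or without knockout library 1 (−0.26). MCM5 was no longer called when wild-type library 1 (−0.14), knockout library 1 (−0.18) or knockout library 2 (−0.22) was left out, MCM6 when wild-type library 2 (−0.11) or either knockout library (−0.25 and −0.26) was, and MCM7 when either knockout library (−0.19 and −0.24) was. MCM5 and MCM6 also missed the threshold with library totals as the scaling (−0.16 and −0.22) and in a fit of these 4 libraries alone (−0.21 and −0.27), and MCM5 in DESeq2 (−0.20). Without wild-type library 1, MCM6 stood at −0.40 (log2).

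The loading factors did not pass the test in the knockout. GMNN, the inhibitor of CDT1, had 78.8 and 89.2 CPM in knockout libraries and 84.1 and 83.5 CPM in wild-type libraries, which overlap, and its log2 fold change of 0.003 (SE 0.08, edgeR adjusted p = 0.984) was the smallest of the role group. CDT1 itself was low, with 6.69 and 6.66 CPM in knockout libraries and 6.74 and 9.63 CPM in wild-type libraries, and its log2 fold change of −0.30 did not pass the test (SE 0.17, edgeR adjusted p = 0.204). CDT1 was called lower without wild-type library 1 (−0.53, edgeR adjusted p = 0.0243) and stood at −0.01 without wild-type library 2. CDC6, the loading ATPase, stood at −0.05, ORC1 at −0.07 and ORC6 at 0.07, each log2 with an SE of 0.05 or 0.06.

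Of the 8 genes of helicase activation, 1 rose and 1 fell, both of the GINS complex. GINS1 had 70.6 and 72.7 CPM in knockout libraries and 60.6 and 62.7 CPM in wild-type libraries and rose by 0.22 on the log2 scale (SE 0.06, edgeR adjusted p = 0.0145). GINS3, a subunit of the same 4-protein complex, had 46.8 and 44 CPM in knockout libraries and 54.3 and 50.9 CPM in wild-type libraries and fell by 0.21 (SE 0.07, edgeR adjusted p = 0.0279). Neither gene's groups overlapped. GINS4 (0.17) and GINS2 (−0.12) did not pass the test, but GINS4 did without wild-type library 2 (0.30, edgeR adjusted p = 0.0262). CDC45 was at 65.5 and 72.4 CPM in knockout libraries and 71.4 and 67.1 CPM in wild-type libraries, with overlap, and stood at −0.01 (SE 0.06). DBF4, the activator of CDC7, had 37.4 and 35.2 CPM in knockout and 30.3 and 30.7 CPM in wild-type libraries, a log2 fold change of 0.25 just outside the threshold (SE 0.09, edgeR adjusted p = 0.0583). CDC7 was at 0.05 and MCM10 at −0.08 (log2). The call of GINS1 was lost without knockout library 2 (0.20), and that of GINS3 when wild-type library 1 (−0.17) or knockout library 2 (−0.17) was left out, with library totals as the scaling (−0.17), in DESeq2 (−0.21) and in a fit of these 4 libraries alone (−0.22).

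PCNA, the clamp that holds the polymerases on DNA, had the smallest adjusted p of all members. It stood at 288 and 308 CPM in knockout libraries and 407 and 417 CPM in wild-type libraries, and fell by 0.47 on the log2 scale (SE 0.05, edgeR adjusted p = 3.32e-05). Both knockout libraries lay below both wild-type libraries, and the call held in every alternative. Of the 4 loader subunits, 1 rose and the other 3 did not pass the test. RFC3 had 70.7 and 70.2 CPM in knockout libraries and 53.3 and 62.9 CPM in wild-type libraries and rose by 0.28 (SE 0.08, edgeR adjusted p = 0.0229). This call ended when wild-type library 1 (0.16), knockout library 1 (0.27) or knockout library 2 (0.28) was left out. RFC4, at 69.3 and 66.3 CPM in knockout and 65.2 and 62.7 CPM in wild-type libraries, changed by 0.09 (SE 0.06), and RFC2 (−0.20) and RFC5 (−0.18) did not pass the test either, although for both the knockout libraries lay below the wild-type libraries. RFC5 was called lower without wild-type library 1 (−0.31, edgeR adjusted p = 0.00365).

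Among 7 polymerase and primase genes only POLE, the catalytic subunit of the leading-strand polymerase, was called. It had 58.7 and 56.1 CPM in knockout libraries and 70.8 and 78.6 CPM in wild-type libraries, with no overlap, and fell by 0.38 on the log2 scale (SE 0.06, edgeR adjusted p = 0.00066), a call kept in every alternative. Its partner subunit POLE2 had 14.4 and 13.7 CPM in knockout libraries and 14.0 and 14.2 CPM in wild-type libraries, which overlap, and stood at −0.003 (SE 0.14). POLD1, the catalytic subunit of the lagging-strand polymerase, was at −0.26 (SE 0.11, edgeR adjusted p = 0.0835) and was called lower without knockout library 1 (−0.41, edgeR adjusted p = 0.0229). POLA1, POLA2, PRIM1 and PRIM2 of the polymerase alpha and primase complex lay between −0.13 and 0.07. None of RPA1, RPA2, FEN1 and LIG1, which bind single strands and process and join Okazaki fragments, passed the test. FEN1, the flap nuclease, had 115 and 125 CPM in knockout libraries and 120 and 122 CPM in wild-type libraries, with overlap, and a log2 fold change of −0.01 (SE 0.06).

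Of the 4 genes of nucleotide supply, 3 fell in the knockout. TYMS, which makes thymidylate, had 12.1 and 12.4 CPM in knockout libraries and 14.4 and 19.7 CPM in wild-type libraries and fell by 0.48 on the log2 scale (SE 0.14, edgeR adjusted p = 0.0224). TK1, the thymidine kinase of the salvage route, had 39.4 and 41.3 CPM in knockout libraries and 47.7 and 53.9 CPM in wild-type libraries and fell by 0.33 (SE 0.08, edgeR adjusted p = 0.00648). RRM2 had 341 and 338 CPM in knockout libraries and 399 and 402 CPM in wild-type libraries and fell by 0.24 (SE 0.05, edgeR adjusted p = 0.00319). The groups did not overlap for any of the 3. RRM1, the partner of RRM2 in the enzyme, had 439 and 437 CPM in knockout libraries, within the 466 and 419 CPM of the wild-type libraries, and stood at −0.02 (log2, SE 0.06). The RRM2 call held in every alternative. TK1 missed the threshold without knockout library 1 (−0.30), and TYMS did so without wild-type library 2 (−0.23), without knockout library 1 (−0.46) and without knockout library 2 (−0.49). Exons of ENOSF1 on the opposite strand overlap 967 bases of TYMS in GENCODE 29, and the total counts of the pair were 4258 for TYMS and 4833 for ENOSF1. The strand setting of the counting is not given in the sources used here, so reads of the pair cannot be told apart.

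CHAF1A, the large subunit of the chaperone that places histones behind the fork, showed the largest rise of the members. It had 69.3 and 72.3 CPM in knockout libraries and 57.9 and 45.9 CPM in wild-type libraries and rose by 0.45 on the log2 scale (SE 0.09, edgeR adjusted p = 0.00292). The call held in every alternative, although the value dropped to 0.29 without wild-type library 2. Its partner CHAF1B had 23.5 and 21.5 CPM in knockout libraries and 24.5 and 24.6 CPM in wild-type libraries and did not pass the test (−0.13, SE 0.08, edgeR adjusted p = 0.245). E2F2, an activating E2F factor, had 7.13 and 7.57 CPM in knockout libraries and 9.75 and 14.2 CPM in wild-type libraries and showed the largest fall of the members (−0.71, SE 0.17, edgeR adjusted p = 0.00651). That call was lost without wild-type library 2 (−0.41). E2F1, also an activator, had 7.87 and 9.43 CPM in knockout and 10.8 and 10.6 CPM in wild-type libraries (−0.31, SE 0.14, edgeR adjusted p = 0.111), and E2F8, a repressor of the family, had 12.7 and 10.8 CPM in knockout and 11.6 and 14.1 CPM in wild-type libraries, with overlap (−0.13, SE 0.15, edgeR adjusted p = 0.535).

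**Figure D3:**
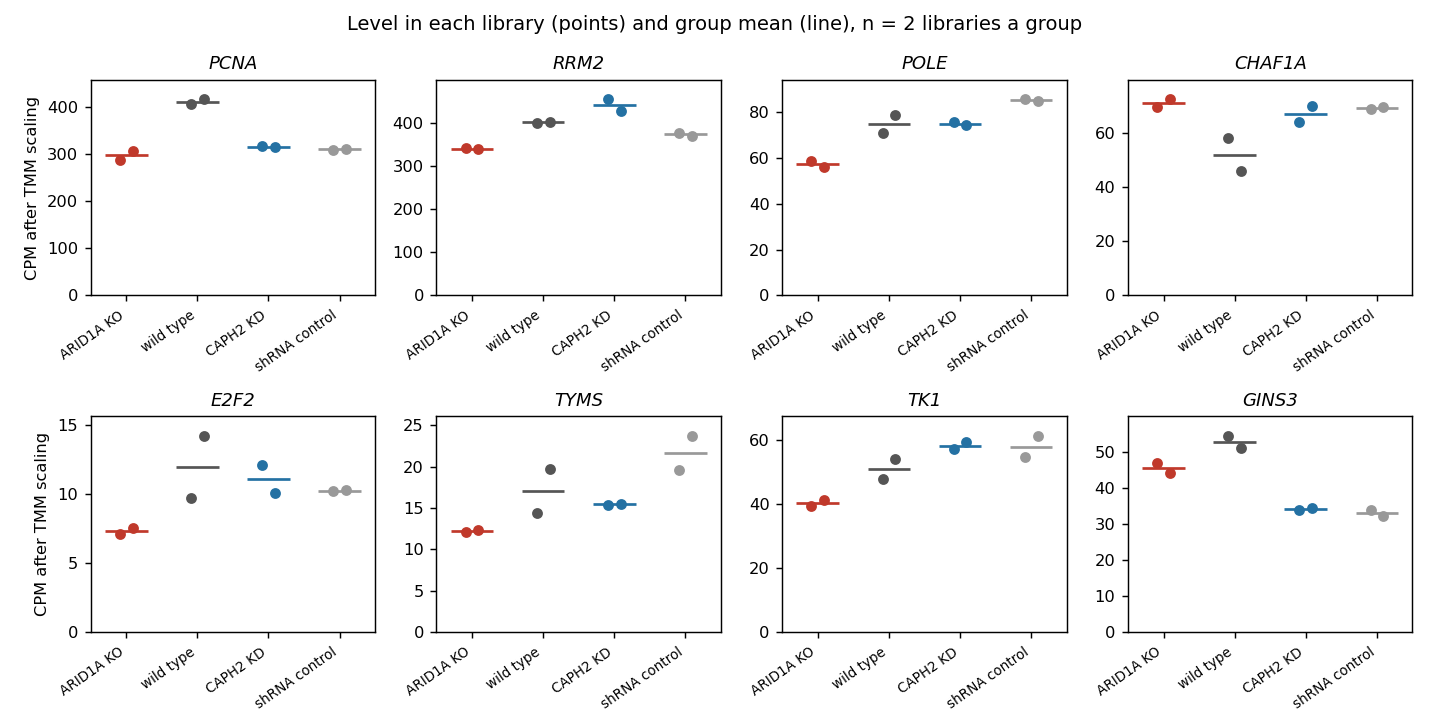
CPM of 8 members in each of the 8 libraries (points) with the mean of each group (line), n = 2 libraries a group. In PCNA both knockout libraries (288 and 308) lie below both wild-type libraries (407 and 417), whereas the wild-type points of E2F2 (9.75 and 14.2), TYMS (14.4 and 19.7) and CHAF1A (57.9 and 45.9) lie far apart.

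Neighbouring genes moved with some members in the knockout. For each member the median log2 fold change of up to 20 tested genes on each side was taken, in the gene order of GENCODE 29. Around E2F2, on chromosome 1, the neighbours had a median of −0.53, and E2F2 stood at −0.18 relative to them. Around PCNA, on chromosome 20, the median was −0.24, and PCNA stood at −0.23 relative to it. RFC3, on chromosome 13, rose by 0.28 where its neighbours had a median of 0.26, which left 0.02. MCM2 and MCM5 also moved by over 1.5 times, to −0.17 and −0.13. MCM4, on chromosome 8, had neighbours at 0.04 and stood at −0.32 relative to them, and TK1, on chromosome 17, had neighbours at 0.01 and stood at −0.35. All 15 called members kept their sign after this subtraction, and the median over the 44 was −0.08. The part of chromosome position in these differences was not tested beyond these values.

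**Figure D4:**
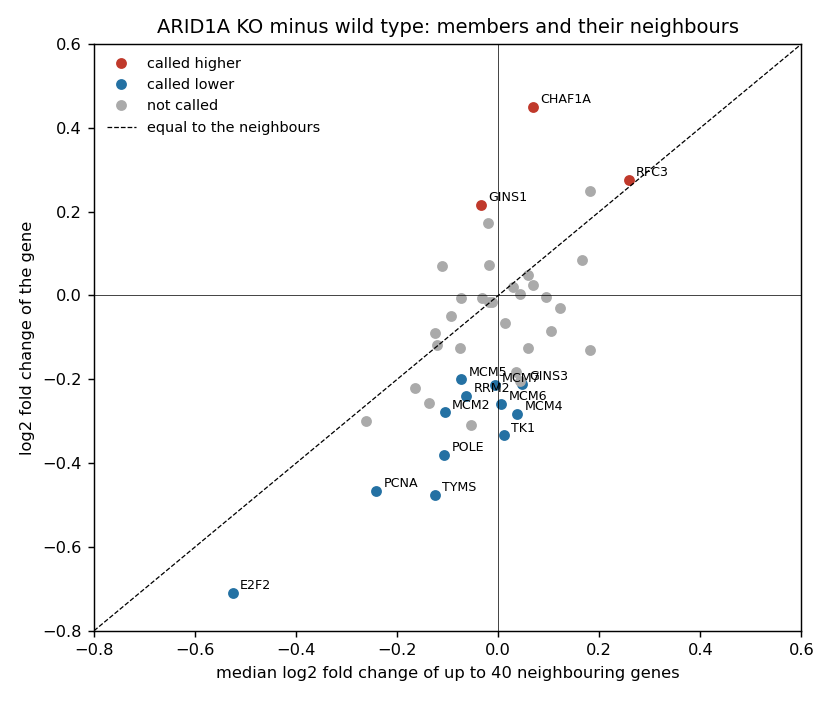
Log2 fold change of each member in knockout minus wild type against the median of up to 20 neighbouring genes on each side, with the dashed line where both are equal. RFC3 lies almost on the line (0.28 and 0.26), E2F2 is low together with its neighbours (−0.71 and −0.53), and MCM4, TK1 and CHAF1A differ from neighbours that lie near 0.

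Knockdown cells were set against shRNA control cells to ask the same of a condensin II subunit. Of the 44 members, 3 fell and 2 rose, together 11.4% against 15.8% of all genes, with 8.22% of all genes called lower and 7.62% called higher. The median log2 fold change was −0.05 over the members and 0.00 over all genes, and the median absolute change was 0.08 against 0.15 for genes of at least 5 CPM. Both knockdown libraries lay below both control libraries for 15 members, against 29.2% of all genes, and above both for 12, against 29.8%. RRM2 had 454 and 428 CPM in knockdown libraries and 377 and 370 CPM in shRNA control libraries and rose by 0.24 on the log2 scale (SE 0.05, edgeR adjusted p = 0.00681). CDC45 had 76.2 and 74.8 CPM in knockdown libraries and 63.5 and 62.8 CPM in shRNA control libraries and rose by 0.26 (SE 0.06, edgeR adjusted p = 0.0179). TYMS had 15.4 and 15.5 CPM in knockdown libraries and 19.6 and 23.7 CPM in shRNA control libraries and fell by 0.49 (SE 0.14, edgeR adjusted p = 0.0329). None of the 3 had overlapping groups. MCM7, at 87.6 and 94.9 CPM in knockdown and 106 and 104 CPM in control libraries, fell by 0.21 (SE 0.06, edgeR adjusted p = 0.0321), as did RFC4, at 51.1 and 47.4 CPM in knockdown and 57.9 and 56.0 CPM in control libraries (−0.21, SE 0.06, edgeR adjusted p = 0.0448). PCNA was nearly level, with 317 and 316 CPM in knockdown libraries and 309 and 312 CPM in control libraries (0.03, SE 0.05, edgeR adjusted p = 0.779).

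No call of the knockdown survived every omission of a library. Leaving out any 1 of the 4 libraries ended those of MCM7, CDC45 and RFC4, with values of −0.26 to −0.16 for MCM7, 0.24 to 0.27 for CDC45 and −0.27 to −0.15 for RFC4. RRM2 missed the threshold without control library 1 (0.25), without control library 2 (0.22) and without knockdown library 1 (0.19), and TYMS without control library 2 (−0.34) or either of the knockdown libraries (−0.49 each). With library totals as the scaling MCM7 (−0.19) and RFC4 (−0.19) were not called, and RFC4 was not called without a filter or in DESeq2 (both −0.21). The members called lower numbered 1 without control library 1 and 0 without any other single library, and those called higher numbered 1 without knockdown library 2 and 0 without any other. The calls over all genes, 2639 in the full fit, were then 1360 to 1524.

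The difference between both effects, knockout minus wild type against knockdown minus shRNA control, was tested in the same fit. It passed for 10 members, 4 higher and 6 lower, or 22.7% against 26.3% of all genes, with 12.3% of all genes higher and 14% lower. PCNA (−0.49, SE 0.07, edgeR adjusted p = 0.000435) and RRM2 (−0.48, SE 0.07, edgeR adjusted p = 0.000415) had the smallest adjusted p, and these 2 calls held in every alternative. RRM2 fell in the knockout (−0.24) and rose in the knockdown (0.24), the only member called in opposite directions in these comparisons. E2F2 (−0.83), RFC5 (−0.40), TK1 (−0.34) and MCM4 (−0.27) were also lower, and CHAF1A (0.49), DBF4 (0.47), GINS1 (0.30) and RFC4 (0.29) were higher. PCNA averaged 412 CPM in wild-type cells and 298, 310 and 317 CPM in knockout, shRNA control and knockdown cells. CHAF1A averaged 51.9 CPM in wild-type cells and 70.8, 69.1 and 67 CPM in the others, in the same order. For both genes it was thus wild type that stood apart. TYMS fell in both comparisons, and its difference was 0.01 with an SE of 0.20, and MCM7 likewise differed by −0.01 with an SE of 0.08. The mean of TYMS was 17 CPM in wild-type, 21.6 in shRNA control and 15.4 in knockdown cells. Its log2 fold change in shRNA control minus wild type was 0.34 and was not called. The other 8 calls each ended on leaving out at least 1 library, with values then of −0.30 to −0.23 for MCM4, −0.42 to −0.26 for RFC5, −0.37 to −0.25 for TK1, −0.87 to −0.53 for E2F2, 0.25 to 0.32 for GINS1, 0.24 to 0.33 for RFC4, 0.44 to 0.49 for CHAF1A and 0.36 to 0.42 for DBF4. Calls over all genes tested were also fewer without any 1 library of the knockout, shRNA control or knockdown group, but not without a wild-type library. Without wild-type library 2 the difference was −0.53 for E2F2, −0.26 for RFC5, −0.25 for TK1 and 0.27 for RFC4, none of them called.

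Cells with the control shRNA also differed from wild-type cells in these genes. This comparison shares its wild-type libraries with the knockout comparison and its control libraries with the knockdown comparison, so its values are given beside them and no overlap is counted. Relative to wild type, 9 members were lower and 1 was higher in shRNA control cells, or 22.7% against 19.2% of all genes, with 10.1% of all genes lower and 9.13% higher. The median log2 fold change of the members was −0.14, against 0.00 for all genes, and both control libraries lay below both wild-type libraries for 26 members (28.7% of all genes) and above both for 7 (28.8% of all genes). GINS3 had 33.8 and 32.3 CPM in shRNA control libraries and 54.3 and 50.9 CPM in wild-type libraries (−0.67, SE 0.07, edgeR adjusted p = 6.28e-05), a larger value than its −0.21 in the knockout. PCNA had 309 and 312 CPM in shRNA control libraries and 407 and 417 CPM in wild-type libraries (−0.41, SE 0.05, edgeR adjusted p = 0.000343), beside −0.47 in the knockout. MCM4 stood at −0.28 in both. CHAF1A had 68.6 and 69.5 CPM in shRNA control libraries and 57.9 and 45.9 CPM in wild-type libraries (0.41, SE 0.09, edgeR adjusted p = 0.0098), beside 0.45 in the knockout, and its neighbours in this comparison had a median of 0.39. By contrast, POLE stood at 0.19 (SE 0.06, edgeR adjusted p = 0.0589), TK1 at 0.19 (SE 0.08, edgeR adjusted p = 0.123) and RRM2 at −0.10 (SE 0.05, edgeR adjusted p = 0.197), beside −0.38, −0.33 and −0.24 in the knockout. Without wild-type library 2, POLE (0.27) and TK1 (0.28) were called higher in shRNA control than in wild-type cells. GMNN (−0.34), RFC3 (−0.31), RFC5 (−0.29), POLA1 (−0.26), MCM10 (−0.19) and MCM3 (−0.18) were also lower in shRNA control than in wild-type cells.

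Only GINS3 and PCNA kept their calls in that comparison under every alternative. MCM4 was not called without control library 2 (−0.25). The other 7 were not called without control library 1 or without control library 2, at −0.16 and −0.20 for MCM3, −0.19 and −0.20 for MCM10, −0.35 and −0.34 for GMNN, −0.27 and −0.36 for RFC3, −0.29 and −0.28 for RFC5, −0.27 and −0.25 for POLA1, and 0.42 and 0.40 for CHAF1A. Without wild-type library 2, RFC3 (−0.18), RFC5 (−0.15) and MCM10 (−0.18) were not called. MCM3 was not called without wild-type library 1 (−0.13), and CHAF1A stood at 0.25 without wild-type library 2, still called. The members called lower were 4 without control library 1 and 3 without control library 2, with none higher in either case. Without wild-type library 2, 4 members were called higher. The calls over all genes, 3205 in the full fit, were 1553 and 1599 without a control library.

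Of 37 further replication genes, 5 rose and 3 fell in the knockout, and of 19 further E2F factors and targets, 4 rose and 2 fell, which is 21.6% and 31.6% of the lists called against 34.5% of all genes. ORC4, a subunit of the origin recognition complex, rose by 0.42 (SE 0.07, edgeR adjusted p = 0.000952), and MCMBP, which binds the MCM proteins, fell by 0.58 (SE 0.07, edgeR adjusted p = 9.85e-05), with neighbours at a median of −0.32. TCF19, a gene switched on at the G1 to S transition, rose by 1.02 (SE 0.07, edgeR adjusted p = 8.28e-07), and CCNE2, a cyclin E, fell by 0.51 (SE 0.11, edgeR adjusted p = 0.00488). Without knockout library 1 or 2 the further replication genes called higher were 3 and 2, and without wild-type library 2 the further E2F genes called lower were 4. In the knockdown 3 further replication genes rose and 4 fell, and 3 further E2F genes fell, or 18.9% and 15.8% against 15.8% of all genes. DNMT1, the maintenance DNA methyltransferase, averaged 245 CPM for wild type, 304 with the control shRNA and 245 with the shRNA against CAPH2. Its shRNA control level was above wild type (0.315, SE 0.058, edgeR adjusted p = 0.00305), so it was the shRNA control that stood apart. From shRNA control to knockdown, DNMT1 fell by 0.32 (SE 0.06, edgeR adjusted p = 0.00303). TFDP2, a dimer partner of E2F factors, fell by 0.34 in the same comparison (SE 0.05, edgeR adjusted p = 0.000825). On leaving out each library of that comparison in turn, 0 further replication genes were called higher and 1 to 2 lower, 1 to 2 further E2F genes were called lower and, without control library 2, 1 was called higher. In shRNA control relative to wild-type cells 4 further replication genes were higher and 10 lower, and 1 further E2F gene was higher and 8 lower, or 37.8% and 47.4% against 19.2% of all genes. In that comparison 4 further replication genes and 3 further E2F genes were lower without either control library, 5 further E2F genes were lower without wild-type library 2, and 1 and 2 further replication genes were higher without control library 1 and without control library 2.

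Of 29 mitotic genes, 15 rose (51.7%, against 16.8% of all genes) and 2 fell (6.9%, against 17.8%) in the knockout, and 16 fell in the knockdown (55.2%, against 8.22%; edgeR with Benjamini-Hochberg adjustment). MKI67, which encodes the proliferation marker Ki-67, fell in both (−0.91 in the knockout, edgeR adjusted p = 5.4e-07, and −0.45 in the knockdown, edgeR adjusted p = 0.000391). Its neighbours in the knockout had a median of −0.69, and MKI67 stood at −0.22 relative to them. UBE2C, a ubiquitin enzyme of mitotic exit, rose by 0.68 in the knockout (edgeR adjusted p = 2.1e-05). In shRNA control relative to wild-type cells 2 mitotic genes were higher (6.9%, against 9.13% of all genes) and 8 lower (27.6%, against 10.1%). Their summed level was 7493 to 7725 CPM in knockout libraries and 6732 to 6930 CPM in wild-type libraries, and 5294 to 5361 CPM in knockdown libraries and 6221 to 6273 CPM in shRNA control libraries. The 44 members summed to 3995 to 4044 CPM in knockout libraries and 4325 to 4378 CPM in wild-type libraries, and to 3919 to 4012 CPM in knockdown libraries and 3920 to 3941 CPM in shRNA control libraries. In the knockout the sum of the members was therefore lower and that of the mitotic genes higher, with no overlap between libraries in either list, and in the knockdown the members' sums overlapped. The 37 further replication genes summed to 3794 to 3833 CPM in knockout and 3720 to 3891 CPM in wild-type libraries, which overlap. In knockdown libraries they summed to 3516 to 3518 CPM and in shRNA control libraries to 3636 to 3691 CPM. No test was made of these sums or of the difference between the lists. Without knockout library 2, 9 mitotic genes were called higher in the knockout, and without control library 1, control library 2, knockdown library 1 and knockdown library 2 in turn the knockdown had 3, 9, 7 and 3 lower. In shRNA control relative to wild-type cells no mitotic gene was called higher without control library 1 or 2, and 3 and 2 were called lower.

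**Figure D5:**
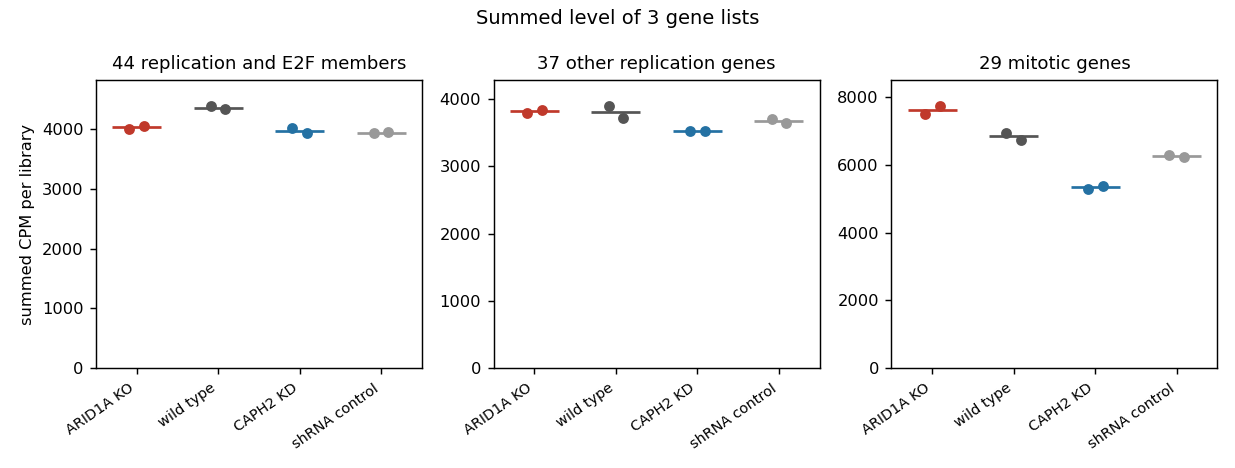
Summed CPM per library of the 44 members, 37 other replication genes and 29 mitotic genes, with the group mean as a line. The members' sum in knockout libraries (3995 to 4044) lies below that in wild-type libraries (4325 to 4378), while the mitotic sum in knockout libraries (7493 to 7725) lies above that in wild-type libraries (6732 to 6930). The sums of the other replication genes overlap between these groups (3794 to 3833 and 3720 to 3891).

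Members with and without E2F-type letters were set side by side. Among the 21 tested members whose windows held the letters, 8 fell and 2 rose in the knockout, with a median log2 fold change of −0.12. Among the 18 without them, 2 fell and 1 rose, with a median of −0.08 (the remaining 5, without a window, had 2 falls). In the knockdown, 2 of the 21 fell and 0 rose, and 1 of the 18 fell and 2 rose, with a median of −0.05 in both. Over all genes tested, 17.8% fell and 16.8% rose in the knockout, and 8.22% fell and 7.62% rose in the knockdown. This split was not tested, and calls among other genes with the letters were not counted. The letters were also present in members not called in either comparison, among them CDT1, POLA1, POLA2, GINS2 and LIG1.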

How the data were processed

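Expected counts for each Ensembl gene came as 1 table that the authors deposited, in which every library has its own column. Per the submitters' processing notes, Bowtie2 and RSEM 1.2.12 were used with hg19; neither the annotation nor the strandedness used for counting is stated there. All deposited expected counts were whole numbers, so rounding changed none. Genes passed filterByExpr by group and were scaled by TMM and tested in R 4.3.3 with edgeR 4.0.16 (quasi-likelihood F-test on group means of all 8 libraries, 4 residual degrees of freedom, Benjamini-Hochberg threshold 0.05; common biological coefficient of variation 7.74%). SE is the absolute log2 fold change divided by the square root of F. Levels per kilobase use the principal transcript in GENCODE 29, which also gave gene order and overlaps on GRCh38; hence no coordinates are given for counts. Promoter windows and their sequences are from RefSeq.

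All members may be named; the members with the largest called changes of each role, and the smallest change as a counter-example, have values in every library. Of the other lists, named genes come from the 3 largest called rises and falls with a mean of at least 1 CPM. The members and lists were chosen with earlier results of these data known. Alternatives were DESeq2 1.42.0, its size factors, library totals, no filter on low counts, fits of the 4 libraries of a comparison, a replicate block, and leaving out each library. In these last fits the lone library of a group is assumed to vary like the others. The test was tested on simulated data: unchanged genes had a p under 0.05 about as often as the threshold sets, but with gene-specific spread the share of false calls after adjustment ran above the 5% aimed at. Exons on the opposite strand overlapped 15 members, exons on the same strand 4 (PRIM1, POLD1, FEN1 and CHAF1B), and 9 have named copies (pseudogenes or paralogs), so their single values are less certain. Replicate numbers did not pair the libraries (correlation of same-numbered deviations 0.03 for knockout with wild type and −0.01 for knockdown with shRNA control).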

Additional observations from a re-analysis of the deposited data

How the results depend on the processing

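Depth and 2 libraries a group limit these results: the median absolute log2 change of the members was 0.18 in the knockout and 0.08 in the knockdown, and a gene that misses the threshold is not shown to be unchanged. Of the called members, 5 of 15 in the knockout, 0 of 5 in the knockdown, 2 of 10 in the difference and 2 of 10 in shRNA control minus wild type kept their calls in every alternative, and no called member changed sign in any. Scaling shifted the median of all genes by at most 0.04 (log2). The causes of the changes below were not tested.

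With library totals only, 1 member was called lower in the knockdown and 14 in shRNA control minus wild type. With no filter on low counts, 2 members were higher in shRNA control minus wild type. With the libraries of the comparison only, 6 were lower in the knockdown and 5 in shRNA control minus wild type. On leaving out each library in turn, members higher and lower ranged over 1 to 4 and 7 to 12 in the knockout, 0 to 1 and 0 to 1 in the knockdown, 0 to 4 and 3 to 11 in shRNA control minus wild type, and 1 to 4 and 2 to 9 in the difference. Of the members not called, 5 in the knockout, 4 in the knockdown, 11 in shRNA control minus wild type and 8 in the difference were called in at least 1 alternative. In the knockout these were CDT1 and RFC5 (without wild-type library 1), GINS4 (without wild-type library 2), POLD1 (without knockout library 1) and DBF4, called with library totals only, with no filter, with the libraries of the comparison only and with the replicate block.

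With the replicate block, the members called higher and lower were 4 and 12 in the knockout, 2 and 3 in the knockdown, 1 and 10 in shRNA control minus wild type, and 4 and 6 in the difference. Since the numbers did not pair the libraries, the block is only an alternative fit.

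Some members that were not called changed sign. With DESeq2 size factors, the log2 fold change was 0.002 for POLE2 in the knockout. With library totals only it was 0.032 for CDC45, 0.008 for POLA1, 0.035 for POLE2, 0.024 for RRM1, 0.03 for FEN1, 0.023 for LIG1 in the knockout, and 0.013 for MCM6, 0.004 for POLE2 in the knockdown, and −0.011 for E2F1 in shRNA control minus wild type, and 0.004 for MCM3, 0.013 for MCM7, 0.018 for CDC6 in the difference. In the DESeq2 Wald test it was 0.003 for POLE2 in the knockout. With the libraries of the comparison only it was −0.004 for GMNN in the knockout, and −0.006 for MCM5, 0 for TK1 in the knockdown. On leaving out each library in turn, the sign turned for 13 members in the knockout, with the lowest and highest log2 value of MCM3 (−0.022 to 0.074), GMNN (−0.089 to 0.09), CDC45 (−0.08 to 0.065), POLA1 (−0.08 to 0.017), POLA2 (−0.07 to 0.231), PRIM2 (−0.096 to 0.148), POLE2 (−0.041 to 0.036), RPA2 (−0.223 to 0.031), RRM1 (−0.088 to 0.06), FEN1 (−0.073 to 0.055), LIG1 (−0.047 to 0.016), E2F8 (−0.266 to 0.02), CDC7 (−0.006 to 0.108). It turned for 16 members in the knockdown, MCM4 (−0.058 to 0.018), MCM5 (−0.051 to 0.041), MCM6 (−0.035 to 0.02), GMNN (−0.197 to 0.021), RFC2 (−0.1 to 0.098), RFC3 (−0.135 to 0.029), POLA1 (−0.023 to 0.057), POLA2 (−0.151 to 0.018), PRIM1 (−0.119 to 0.017), PRIM2 (−0.182 to 0.099), POLE2 (−0.225 to 0.24), TK1 (−0.075 to 0.091), CHAF1A (−0.109 to 0.008), E2F1 (−0.237 to 0.017), E2F2 (−0.03 to 0.245), E2F8 (−0.261 to 0.045). It turned for 7 in shRNA control minus wild type, MCM2 (−0.13 to 0.107), MCM5 (−0.116 to 0.007), CDT1 (−0.282 to 0.237), POLA2 (−0.168 to 0.133), RRM1 (−0.112 to 0.035), E2F1 (−0.096 to 0.127), E2F2 (−0.474 to 0.072). It turned for 16 in the difference, MCM2 (−0.225 to 0.012), MCM3 (−0.067 to 0.029), MCM7 (−0.06 to 0.048), MCM10 (−0.013 to 0.022), CDC6 (−0.053 to 0.044), CDT1 (−0.183 to 0.337), GMNN (−0.019 to 0.196), GINS4 (−0.009 to 0.224), POLA2 (−0.01 to 0.291), PRIM2 (−0.08 to 0.201), POLE2 (−0.243 to 0.221), RPA1 (−0.128 to 0.138), TYMS (−0.195 to 0.26), FEN1 (−0.012 to 0.116), E2F8 (−0.18 to 0.129), CDC7 (−0.044 to 0.07).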
